A study of Mus musculus with 12 samples.

Results

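Transcripts of 10 genes of the TGF-beta pathway were followed across 12 single-cell RNA sequencing libraries of mouse brain and blood: the ligand Tgfb1, its activator Nrros, the receptors Tgfbr1 and Tgfbr2, the co-receptor Eng, the signal transducers Smad2, Smad3 and Smad4, and the inhibitors Smad7 and Ski. The genes were taken by symbol from the 31054 that the count tables list, and all 10 were detected and passed the filter on low counts. Their levels are given in CPM, a gene's unique molecular identifiers (UMIs, each standing for 1 captured transcript) scaled to counts per 1e6 of all UMIs of the kept cells of a library.

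All treated recipients were C57BL/6J mice that had been conditioned with busulfan, an alkylating agent that clears hematopoietic niches, and dosed with lineage-negative hematopoietic stem/progenitor cells carrying a lentiviral GFP vector, either intravenously (i.v.) or intracerebroventricularly (i.c.v.). Cells sorted as CD45+, CD11b+ and CX3CR1+ were split into a GFP+ fraction, the donor-derived microglia-like cells (MLCs), and a GFP- fraction, taken as endogenous microglia, so that each of 4 mice (1 female and 1 male per route) gave 1 library of each. The labels give these mice an age of 22 to 28 weeks, whereas the series' design text gives a longer time after dosing. Untreated C57BL/6J comparators, labelled 8 to 12 weeks old, were sorted as microglia, astrocytes, neurons and peripheral blood mononuclear cells (PBMCs), with 1 library each. By the study's methods these 4 libraries came from 1 mouse, so they have no replicate error and are not independent of each other. The transduced cells came from male donors only, and the vector did not mark every one of them. By the study's methods, mice of both routes were also given untransduced whole bone marrow into a vein some days after dosing, so the GFP- fraction can hold GFP- donor cells from both sources, and the i.c.v. mice too received donor cells through the blood. By the marker lists the neuron sort was rich in oligodendrocytes and is called the neuron sort here.

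TGF-beta is made as a latent dimer that is tethered on microglia by NRROS and released by integrins. It then binds TGFBR2, which recruits and phosphorylates TGFBR1, and TGFBR1 in turn phosphorylates SMAD2 and SMAD3, which enter the nucleus with SMAD4. SMAD7 blocks the receptor as part of the negative feedback of the pathway, SKI represses Smad-bound genes, and endoglin (ENG) tunes receptor choice. In the brain this pathway is best known for maintaining the homeostatic gene program of microglia.

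The kept cells held 8835197 to 16514669 UMIs per GFP+ library and 4970758 to 8105756 per GFP- library. The median was 3499 UMIs per cell in the i.v. female's GFP+ library and between 842 and 1307.5 in the other 7. Cells with at least 3 markers of CNS-associated macrophages (CAMs), monocytes or dendritic cells made up 33.8% to 50.7% of GFP+ and 4.26% to 13.3% of GFP- cells, and the 8 microglia markers summed to 2695 to 5587 CPM in GFP+ and 6311 to 9437 CPM in GFP- libraries. The part of this difference in the results below was not tested except where cells were split by markers. Of the 8 CAM markers, Mrc1, Pf4 and Ms4a7 were higher in MLCs and Cd163 was lower (edgeR quasi-likelihood test, adjusted p under 0.05). Lyve1, F13a1, Cbr2 and Stab1 did not pass, so the CAM list did not move as a whole. TMM scaling factors (trimmed mean of M values, which align the bulk of genes between libraries) were 0.859 to 0.967 in GFP+ and 1.04 to 1.16 in GFP- libraries, and without them the median log2 fold change of all genes was -0.27 in place of 0.01. Pairs of libraries shared 0 to 8 cell barcodes, at most 0.348% of the smaller library.

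Between GFP+ MLCs and GFP- endogenous microglia, 4 of the 10 genes were lower in MLCs (Eng, Smad7, Smad3 and Tgfbr1), 0 were higher and 6 did not pass (edgeR quasi-likelihood test, adjusted p under 0.05), with 1, Nrros, higher at an unadjusted p under 0.05 and by DESeq2. In sums over cells, fewer cells with a transcript and fewer transcripts per cell cannot be told apart. Of all 11756 genes tested, 32.5% passed, 15.9% as lower and 16.6% as higher. The median log2 fold change was -0.30 over the 10 genes and 0.01 over all genes tested. Without TMM the count rose to 8 of 10, all lower, where 32.3% of all genes passed as lower and 6.55% as higher and the median of all genes shifted by -0.28, and only Nrros and Tgfbr2 did not pass. Without the cells that carried 3 CAM, monocyte or dendritic markers it was 2 of 10, Eng and Smad3. In the i.c.v. mice alone it was also 2, Eng and Smad7. The number of all genes that passed fell in both of these fits too, to 1031 in the i.c.v. mice alone against 3820 in the reported fit. These 2 counts are thus not read as a loss particular to the 10 genes.

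**Figure D1:**
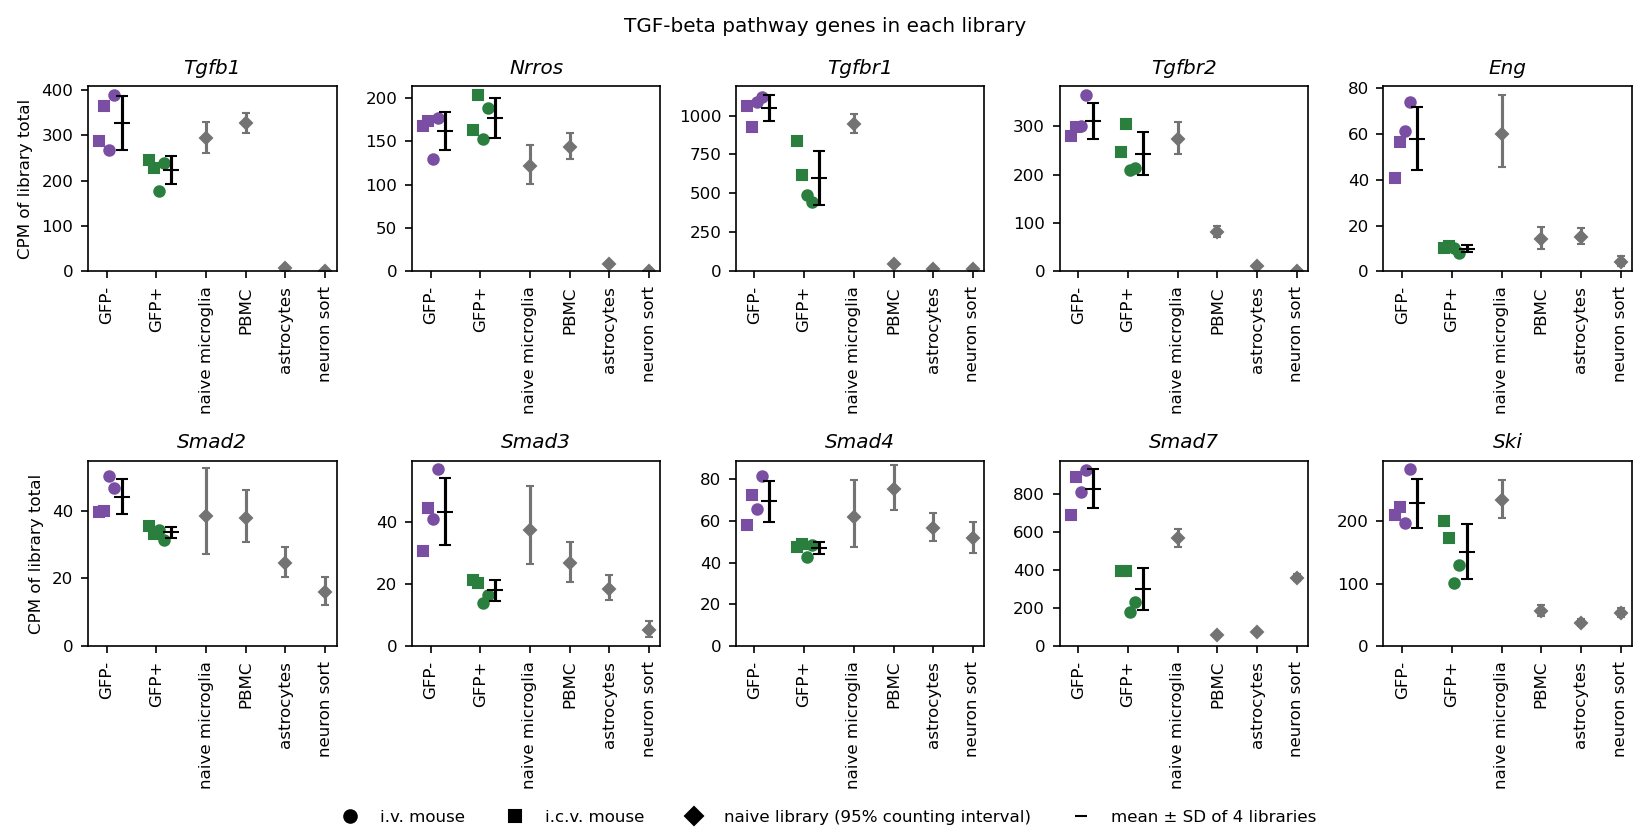
Level of each gene (CPM of the library total, linear axes from 0) in 4 GFP- and 4 GFP+ libraries, with mean ± SD, and in 4 untreated libraries with 95% Poisson intervals of counting error. Eng lay between 8.00 and 11.2 CPM in the GFP+ libraries and between 40.6 and 73.7 CPM in the GFP- libraries, while Nrros overlapped between the sorts.

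**Figure D2:**
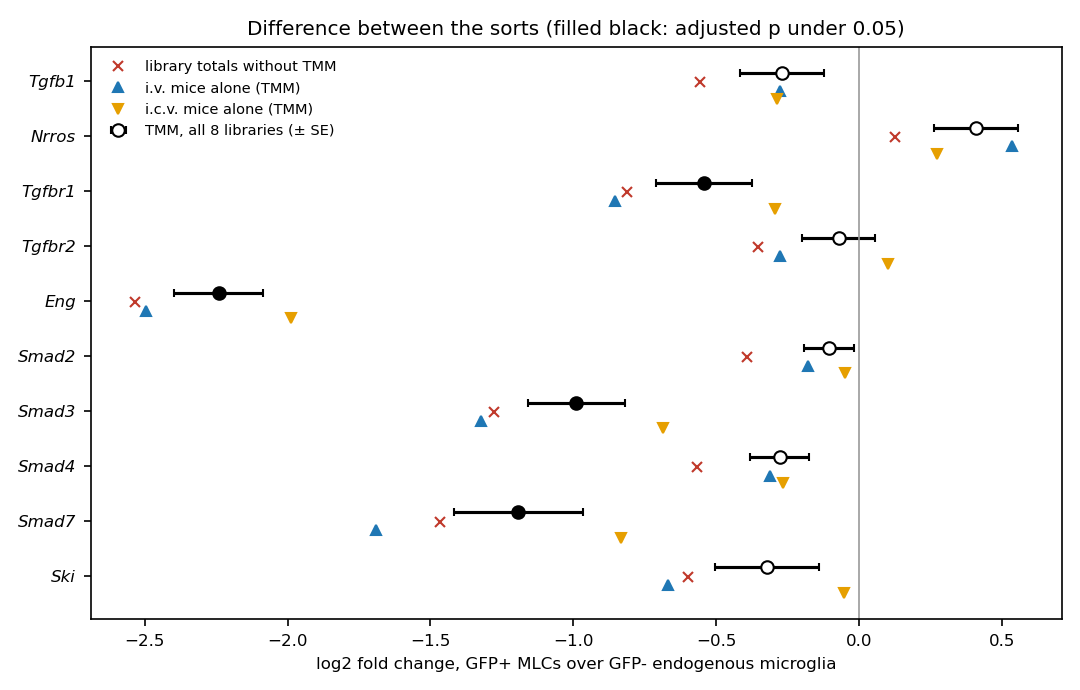
Log2 fold change of GFP+ MLCs over GFP- endogenous microglia (x axis) for each gene, with TMM and all 8 libraries (circles ± SE, filled where the adjusted p was under 0.05), without TMM, and in the mice of 1 route alone. Eng was at -2.24 and Nrros at 0.41, and every other gene lay between them.

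The ligand gene Tgfb1 (GRCm38 chromosome 7, 25687002 to 25705077) reached 269, 389.7, 287 and 365 CPM in the GFP- libraries of the i.v. female, i.v. male, i.c.v. female and i.c.v. male, an order of mice kept for the values that follow. The GFP+ libraries reached 178, 239, 247 and 229 CPM. All GFP+ values (223 ± 30.8, SD, n = 4) were below all GFP- values (328 ± 58.8), yet the log2 fold change of -0.27 (SE 0.15) did not pass (adjusted p = 0.186), and without TMM it was -0.55 (adjusted p = 0.0208).

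Nrros (chromosome 16, 32142785 to 32165594), which encodes the transmembrane protein that holds latent TGF-beta1 on microglia and macrophages, was the single member with a higher estimate in MLCs. It reached 129, 177, 167 and 174 CPM in the GFP- and 153, 188, 163 and 203 CPM in the GFP+ libraries, and the groups overlapped. Its log2 fold change was 0.41 (SE 0.15, adjusted p = 0.0580), and it was 0.13 without TMM (adjusted p = 0.488). It passed with the deepest 5% of cells left out (0.51, adjusted p = 0.0159), in DESeq2 (0.41, adjusted p = 0.0357) and without the i.c.v. female's GFP+ library (0.47, adjusted p = 0.0474).

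Tgfbr1 (chromosome 4, 47353222 to 47414931) encodes the type I receptor kinase that phosphorylates SMAD2 and SMAD3. Its level was 1086, 1122, 1059.7 and 929 CPM in the GFP- libraries and 492, 446, 837 and 618 CPM in the GFP+ libraries. The groups did not overlap, the lowest values were those of the i.v. GFP+ libraries, and the means were 1049 ± 83.9 and 598 ± 175 CPM (SD, n = 4 each), 1.75-fold apart. The log2 fold change was -0.54 (SE 0.17, adjusted p = 0.0357). Leaving out 1 library at a time ended this call in 7 of 8 fits, with adjusted p up to 0.0871, and the call held only without the i.c.v. female's GFP+ library (adjusted p = 0.00847). It was also lost in the i.c.v. mice alone (-0.29, adjusted p = 0.327), in cells thinned to 500 UMIs (adjusted p = 0.270), with no filter on low counts (adjusted p = 0.0539) and without the cells that carried 3 CAM, monocyte or dendritic markers (log2 fold change -0.35, adjusted p = 0.296).

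Tgfbr2 (chromosome 9, 116084293 to 116175360), the type II receptor that binds the ligand first, was at 302, 365, 279.7 and 298 CPM, with a group mean of 311 ± 37.4 CPM (SD, n = 4), in GFP- cells. In GFP+ cells it was at 209, 213, 248 and 305 CPM, with a mean of 244 ± 44.1 CPM (SD, n = 4). The i.c.v. male's GFP+ library lay above 3 of the 4 GFP- libraries, and the log2 fold change was -0.07 (SE 0.13, adjusted p = 0.700). As a share of the UMIs of both receptors, which does not depend on scaling between libraries, Tgfbr1 made up 77.1% ± 1.85 in GFP- and 70.5% ± 4.67 in GFP+ libraries (SD, n = 4 each), and the difference of -6.63 points (GFP+ minus GFP-) did not pass (two-sided exact permutation test, p = 0.0857, adjusted p = 0.114 over 3 shares).

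Eng (chromosome 2, 32646595 to 32682669), the co-receptor endoglin best known from endothelial cells, differed most among the 10 genes. It reached 61.0, 73.7, 40.6 and 56.3 CPM in the GFP- libraries and 10.2, 8.00, 10.4 and 11.2 CPM in the GFP+ libraries. These values rest on 303 to 481 UMIs in each GFP- library and on 79 to 169 in each GFP+ library. The groups were far apart, with means of 57.9 ± 13.7 and 9.96 ± 1.37 CPM (SD, n = 4 each), 5.81-fold lower in MLCs, and with TMM the log2 fold change was -2.24 (SE 0.16, adjusted p = 9.4e-05). It passed in all 13 alternatives of processing and design that were run, with log2 fold changes from -2.54 to -1.99, and in all 8 fits that left out 1 library. The 8 endothelial markers summed to 17.7 to 39.5 CPM in GFP+ and to 33.0 to 85.5 CPM in GFP- libraries and were lower in the GFP+ library of every mouse, and cells with at least 3 of them made up 0.0459% to 0.0883% of the cells of each treated library. The part of endothelial RNA outside such cells in the Eng difference was not tested. Without cells that carried 3 markers of other types, endothelial cells included, the log2 fold change of Eng was -2.35 (adjusted p = 5.33e-05).

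Smad3 (chromosome 9, 63646767 to 63757994) and Smad2 (chromosome 18) encode the receptor-activated Smads of the TGF-beta branch. Smad3 was at 41.0, 57.0, 30.7 and 44.5 CPM in GFP- and at 13.8, 16.4, 21.2 and 20.4 CPM in GFP+ libraries. The groups did not overlap, with means of 43.3 ± 10.8 and 17.9 ± 3.45 CPM (SD, n = 4 each), 2.41-fold lower in MLCs, and the log2 fold change was -0.99 (SE 0.17, adjusted p = 0.00387). The call held in all 8 fits that left out 1 library and in 12 of 13 other alternatives, and was lost only in the i.c.v. mice alone (-0.69, adjusted p = 0.0609).

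Smad2, in contrast, was at 50.3, 46.9, 39.7 and 40.0 CPM in GFP- and at 34.5, 31.4, 35.4 and 33.3 CPM in GFP+ libraries, a log2 fold change of -0.11 (SE 0.09) that did not pass (adjusted p = 0.380). Smad3 held 49.0% ± 5.58 of the UMIs of both genes in GFP- libraries, between 43.6% and 54.9%, and 34.6% ± 4.28 in GFP+ libraries, between 28.6% and 37.9% (SD, n = 4 each). This difference of -14.4 points (GFP+ minus GFP-) had p = 0.0286 in the two-sided exact permutation test, the smallest that 4 libraries against 4 allow, and an adjusted p of 0.0857 over 3 shares. Capture efficiency can differ between the genes, so the shares are read only between libraries.

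Smad4 (chromosome 18), the common partner of the activated Smads, had means of 69.2 ± 9.98 CPM in GFP- and 46.8 ± 2.82 CPM in GFP+ libraries (SD, n = 4 each). Its values ran from 57.9 to 81.2 and from 42.7 to 49.0 CPM, so that the groups did not overlap. The log2 fold change of -0.28 (SE 0.10) did not pass (adjusted p = 0.0653), but did so when the mouse was a block in the fit (-0.27, adjusted p = 0.0498), with the deepest 5% of cells left out (-0.35, adjusted p = 0.0178), with upper-quartile scaling (-0.32, adjusted p = 0.0400) and without TMM.

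Smad7 (chromosome 18), the inhibitory Smad that is itself induced by TGF-beta, reached 809, 923, 689.9 and 887 CPM in the GFP- libraries. In the GFP+ libraries it reached 180.3, 231, 394 and 394 CPM. All MLC libraries were lower, those of the i.v. mice most, and the means of 827 ± 103 and 299.9 ± 111 CPM (SD, n = 4 each) were 2.76-fold apart. The log2 fold change was -1.19 (SE 0.23, adjusted p = 0.00569), and the call held in all 8 fits that left out 1 library and in 12 of 13 other alternatives, and was lost only without the cells that carried 3 CAM, monocyte or dendritic markers (-0.91, adjusted p = 0.0543).

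Ski (chromosome 4, 155154075 to 155222592), a corepressor that binds SMAD2, SMAD3 and SMAD4, was at 196, 284, 210.0 and 222 CPM in GFP- and at 102, 131, 199 and 173 CPM in GFP+ libraries. The groups overlapped through the i.c.v. female's GFP+ library, and the log2 fold change of -0.32 (SE 0.18) did not pass (adjusted p = 0.204). Its share of the UMIs of Ski and its paralog Skil was 25.6% ± 1.72 in GFP- and 21.2% ± 3.21 in GFP+ libraries (SD, n = 4 each, two-sided exact permutation test, p = 0.114, adjusted p = 0.114).

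In CPM of library totals, 7 of the 10 genes were lower in MLCs with no overlap of libraries, where 32.6% of all tested genes were, and 0 were higher without overlap, where 6.29% of all tested genes were. On the TMM scale it was 3 (Eng, Smad3 and Smad7), where 17.9% of all tested genes were, and Nrros was higher without overlap, as were 16.8% of all tested genes.

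Promoter windows from 250 bases before to 50 bases after the annotated start were read from RefSeq on GRCm38.p6 and matched 7 of the 10 genes, those other than Smad2, Smad4 and Smad7. The 250 bases before the start are given for 3 genes that were lower in MLCs and for Nrros, which was not, to show what they hold of CAGAC, the letters of a Smad-binding element, which stand in capitals, as CAGAC or as GTCTG where the match is on the other strand. They are chr2:32646345-32646594 (+ strand) for Eng, chr9:63757995-63758244 (- strand) for Smad3, chr4:47352972-47353221 (+ strand) for Tgfbr1 and chr16:32165595-32165844 (- strand) for Nrros, each 5′ to 3′ on the strand of the gene.
Eng: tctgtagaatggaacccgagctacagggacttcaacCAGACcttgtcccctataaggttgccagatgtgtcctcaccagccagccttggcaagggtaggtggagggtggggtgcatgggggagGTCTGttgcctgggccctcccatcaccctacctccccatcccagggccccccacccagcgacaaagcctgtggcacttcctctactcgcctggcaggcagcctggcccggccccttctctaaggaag
Smad3: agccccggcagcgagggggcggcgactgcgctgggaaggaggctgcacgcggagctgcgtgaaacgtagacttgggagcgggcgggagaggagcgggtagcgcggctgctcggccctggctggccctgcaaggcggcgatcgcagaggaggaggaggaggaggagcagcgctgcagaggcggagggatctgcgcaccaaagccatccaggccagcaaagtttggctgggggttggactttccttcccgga
Tgfbr1: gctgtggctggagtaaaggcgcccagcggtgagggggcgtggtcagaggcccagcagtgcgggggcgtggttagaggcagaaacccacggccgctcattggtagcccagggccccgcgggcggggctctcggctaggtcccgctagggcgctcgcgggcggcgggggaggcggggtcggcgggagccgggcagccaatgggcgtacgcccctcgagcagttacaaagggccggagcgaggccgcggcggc
Nrros: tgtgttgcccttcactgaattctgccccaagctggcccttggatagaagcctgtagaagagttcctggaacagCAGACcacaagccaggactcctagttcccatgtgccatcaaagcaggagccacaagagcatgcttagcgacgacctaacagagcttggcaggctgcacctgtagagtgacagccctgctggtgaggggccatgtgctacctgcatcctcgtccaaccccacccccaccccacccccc
In these bases the Eng promoter held 2 matches and the Nrros promoter 1, whereas those of Smad3 and Tgfbr1 held 0. Over windows of 300 bases, CAGAC matched once in that of Tgfbr2 and in a second window of Tgfbr1, and not in those of Tgfb1 and Ski. The letters are common, being found on either strand in 49.6% of the 32851 windows of the table. The palindrome GTCTAGAC, which does not contain CAGAC, was found in 0 windows of the matched genes and in 0.213% of all windows. GAGGAA, the core of the motif of the macrophage factor PU.1, was found on either strand in the windows of Eng and Tgfbr2 and the second of Tgfbr1, and in 28.3% of all windows. These matches describe letters only.

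The level of each gene was also read within cells that carried UMIs of at least 3 of 8 microglia markers or of at least 3 of 8 CAM markers. A cell can be in both groups, and deeper cells reach 3 markers more easily, so these are ranges of cells and not cell types. Cells with microglia markers held 61.5% to 88.4% of the UMIs of GFP+ libraries and 87.9% to 92.8% of those of GFP- libraries. Cells with CAM markers held 57.4% to 71.0% and 10.3% to 34.8%.

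Within the cells with microglia markers, Eng was at 61.9, 74.96, 41.9 and 56.8 CPM in GFP- and at 10.8, 7.41, 10.0 and 10.9 CPM in GFP+ libraries, close to the values over all cells. Smad7 averaged 822 ± 106 and 286 ± 75.5 CPM, Smad3 44.0 ± 10.4 and 17.8 ± 1.70 CPM, and Tgfbr1 1053 ± 83.7 and 579 ± 109 CPM in GFP- and GFP+ libraries in turn (SD, n = 4 each). In these cells 8 of the 10 genes were lower in MLCs without overlap of libraries, where 38.5% of all 11756 genes were, 0 were higher, where 8.28% were, and Nrros and Tgfbr2 overlapped.

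Cells with CAM markers looked different, in that most of the genes followed overlapped between the sorts, though Eng did not. The share of all genes that overlapped in these cells was not counted. The overlap is thus not read as particular to the genes followed. The GFP- values rest on 104 to 571 cells with CAM markers per library. In the cells with CAM markers Smad7 averaged 224 CPM (123 to 278) in GFP- and 231 CPM (176 to 283) in GFP+ libraries. Tgfbr1 averaged 448 ± 87.5 and 521 ± 82.9 CPM in turn (SD, n = 4 each). Tgfbr1 in the GFP- cells with CAM markers (355 to 565 CPM) was thus below Tgfbr1 in the GFP- cells with microglia markers (935 to 1131 CPM) in every mouse. Eng was at 9.21 to 17.7 CPM in the GFP- and at 4.69 to 8.37 CPM in the GFP+ cells with CAM markers, on 5 to 26 and 27 to 83 UMIs per library. These splits were compared as values, without a test.

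**Figure D3:**
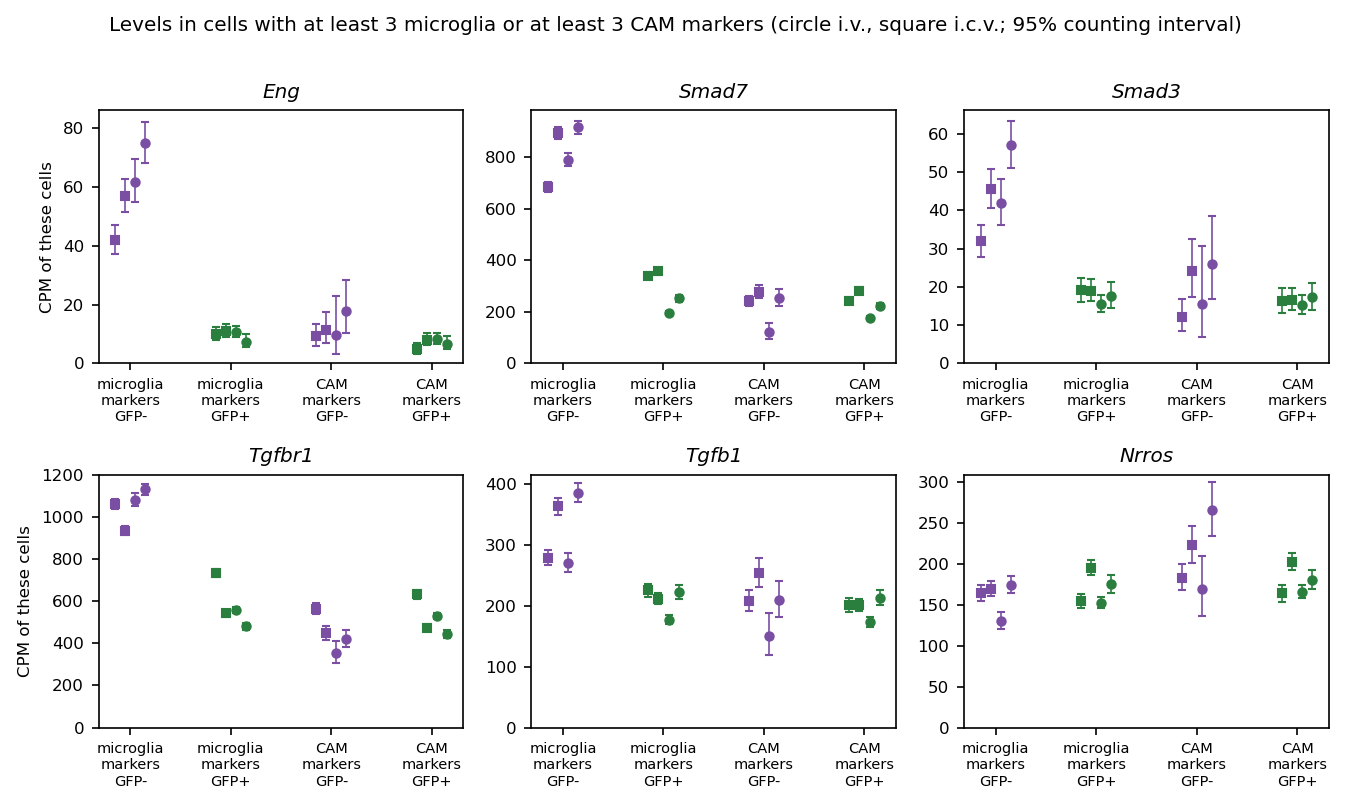
Level of 6 genes (CPM over the cells named on the x axis, linear axes from 0) in cells with at least 3 microglia or at least 3 CAM markers, for each GFP- and GFP+ library (circles i.v., squares i.c.v.), with 95% Poisson intervals of counting error. In cells with microglia markers Eng lay between 41.9 and 74.96 CPM in GFP- and between 7.41 and 10.9 CPM in GFP+ libraries, while the cells with CAM markers of both sorts lay between 4.69 and 17.7 CPM.

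The share of cells with a UMI was read at a fixed depth. With each cell thinned to 500 UMIs, which left out 0 treated cells, an Eng UMI was found in 3.48% ± 0.570 of GFP- and 0.590% ± 0.0672 of GFP+ cells (SD, n = 4 libraries each). The same measure gave 0 of 482 cells in the neuron sort, which allows up to 0.622%, and 0.785% (95% exact interval 0.360% to 1.49%) of cells in the astrocyte library, where cells had 6937 and 3395 UMIs at the median before thinning. Without thinning the shares were 8.90% (6.70% to 10.1%) in GFP- and 3.29% (2.88% to 4.28%) in GFP+ cells, and 4.28% in the astrocyte library. The 4 MLC libraries lay between 0.534% and 0.688% when thinned, on either side of the limit of the neuron sort. The astrocyte library does not lack cells with Eng, since 41.1% of its Eng UMIs lay in the 20 cells with at least 3 endothelial markers and 71.2% in the 107 cells with at least 3 pericyte or fibroblast markers (a cell can be in both), so it sets no background level for Eng. Tgfbr1 was found in 47.4% ± 1.48 of GFP- and 35.6% ± 7.42 of GFP+ cells, and in 0.524% of astrocyte library cells (0.192% to 1.14%), below every treated library. Without thinning it was found in 70.5% ± 2.64 and 70.4% ± 4.94. Smad7 was found in 32.2% ± 3.78 and 18.1% ± 5.42 of thinned cells (51.0% ± 6.23 and 42.8% ± 3.95 unthinned), and Smad3 in 2.76% ± 0.547 and 1.41% ± 0.267 (6.92% ± 1.09 and 6.26% ± 0.287 unthinned).

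Eng, Smad3 and Smad7 did not overlap between the sorts in these shares (two-sided exact permutation test, p = 0.0286 each, adjusted p = 0.0952 over the 10 genes). Of all 11756 genes, 12.2% were lower and 5.18% higher in MLCs without overlap at this depth. Nrros was the single gene found in more GFP+ cells, 9.61% ± 1.12 against 7.52% ± 0.875 (two-sided exact permutation test, p = 0.0857, n = 4 each, and 36.5% ± 4.58 against 19.3% ± 1.82 unthinned). With 1000 UMIs drawn per cell, which kept 1374 to 2561 cells of each GFP+ and 1412 to 1953 of each GFP- library, 7 genes (Tgfb1, Tgfbr1, Eng, Smad3, Smad4, Smad7 and Ski) had lower shares in MLCs without overlap (two-sided exact permutation test, adjusted p = 0.0408 each), as had 23.0% of all 11756 genes, and 0 had higher shares without overlap, as had 8.29%. At the cells' own depth, which was higher in the GFP+ sort, Tgfb1, Tgfbr2, Smad2, Smad4 and Ski were found in more GFP+ than GFP- cells, by 4.21 to 10.1 points.

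In the untreated microglia, which lacked replicates, most genes lay near the GFP- libraries. Tgfbr1 was at 945 CPM (95% Poisson interval 886 to 1008), Eng at 59.7 CPM (45.5 to 77.03), Smad3 at 37.5 CPM (26.4 to 51.6), Ski at 234 CPM, Tgfb1 at 294 CPM and Smad4 at 61.7 CPM, each inside the range of the 4 GFP- libraries and outside that of the 4 GFP+ libraries. Smad7, at 569 CPM (523 to 618), lay between the 2 ranges, and Nrros, at 121 CPM (101 to 145), lay below both. Tgfbr2 at 274 CPM lay within the GFP+ range alone, and Smad2 at 38.5 CPM in neither. The untreated microglia had a median of 425 UMIs per cell, and the 9 neutrophil markers summed to 9237 CPM in their library. The untreated libraries differ from the treated ones in age and treatment, which cannot be told apart. The study describes a similar isolation for both. Any difference in preparation, which the labels do not give, could not be told apart from these either.

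The PBMC library gave the blood level of the genes, from 341 kept cells of 2500 barcodes. Of these cells 39.0% carried at least 3 B cell, 32.3% at least 3 monocyte and 14.4% at least 3 erythroid markers. Tgfb1 was as high there as in untreated microglia (327 CPM, 305 to 349), and so was Nrros (144 CPM, 129.6 to 159). Tgfbr1 (50.6 CPM), Smad7 (57.0 CPM), Ski (56.3 CPM), Tgfbr2 (81.7 CPM) and Eng (14.1 CPM) were lower in PBMCs than in untreated microglia, 18.7-, 9.98-, 4.16-, 3.36- and 4.25-fold in turn. MLCs lay between PBMCs and untreated microglia for Tgfbr1, Smad7 and Ski in all 4 libraries, whereas Eng in MLCs (8.00 to 11.2 CPM) was no higher than in PBMCs. Smad3 was at 26.6 CPM (20.7 to 33.6) in PBMCs and lower than that estimate in all 4 MLC libraries. In the PBMC library, the 110 cells with at least 3 monocyte markers had 377 CPM of Tgfb1 and 49.9 CPM of Tgfbr1, and the 133 cells with at least 3 B cell markers had 233 and 41.6 CPM.

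Astrocytes and the neuron sort held little of the ligand and receptors, with Tgfb1 at 6.87 and 1.88 CPM, Nrros at 8.12 and 0.807 CPM, Tgfbr1 at 14.6 and 12.6 CPM and Tgfbr2 at 11.4 and 1.88 CPM. Smad7 stood out in the neuron sort at 359 CPM (340 to 379), and the 553 cells there with at least 3 oligodendrocyte markers had 360.1 CPM. The 97 cells with these markers in the astrocyte library had 295 CPM. Smad4 varied least among the 4 untreated libraries, from 51.7 to 75.3 CPM. The 20 cells of the astrocyte library with at least 3 endothelial markers had 316 CPM of Eng, against 6.27 CPM in its cells with astrocyte markers.

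The study compared routes of dosing, and within MLCs Smad7 was the single member that passed the test between them. It was at 180.3 and 231 CPM in the i.v. and at 394 and 394 CPM in the i.c.v. mice, a log2 fold change of -0.83 (SE 0.17, adjusted p = 0.0480). In this comparison 2.78% of 12540 genes passed, 2.56% as higher and 0.215% as lower in i.v. mice. The call is thin, since leaving out 1 library at a time ended it in 7 of 8 fits (adjusted p up to 0.245), holding only without the i.v. male's GFP+ library (adjusted p = 0.0483), and in 5 of 10 other alternatives, among them GFP+ libraries fitted alone (adjusted p = 0.101) and cells thinned to 500 UMIs (adjusted p = 0.354). Tgfbr1 (-0.52, SE 0.17, adjusted p = 0.166) and Ski (-0.57, SE 0.19, adjusted p = 0.187) were lower in both i.v. than in both i.c.v. libraries and did not pass. The other 7 genes had log2 fold changes between -0.35 and 0.05. Markers of other myeloid cells moved with the route in the GFP+ libraries. The 8 monocyte markers summed to 280 and 179.8 CPM in the i.v. and to 2.38 and 3.21 CPM in the i.c.v. mice, the 9 neutrophil markers to 1669 and 3305 against 112 and 113 CPM, and the 8 dendritic cell markers to 214 and 388 against 10.1 and 41.2 CPM. All 3 lists were thus higher in both i.v. than in both i.c.v. GFP+ libraries, and in the i.c.v. GFP+ libraries 7 of 8 monocyte, 7 and 8 of 9 neutrophil and 5 of 8 dendritic markers were under 1 CPM. In the GFP- libraries the neutrophil markers went the other way, at 511 and 340 CPM in the i.v. and 6035 and 1181 CPM in the i.c.v. mice. The monocyte and dendritic sums overlapped between the routes there. Without cells that carried 3 neutrophil or other non-macrophage markers, Smad7 was at -0.81 (adjusted p = 0.0438), and the part of the monocyte and dendritic markers in the values of Smad7, Tgfbr1 and Ski was not tested.

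In GFP- endogenous microglia, 0 genes passed between the routes (0% of 12540, edgeR, with 1063 at an unadjusted p under 0.05 and 68 by DESeq2), and the 10 genes had log2 fold changes between -0.27 and 0.37. Whether the difference between the sorts depended on the route was tested as an interaction, in which 1.91% of 12540 genes passed, 1.80% with a positive and 0.112% with a negative sign, and none of the 10 did (edgeR, with 2 at an unadjusted p under 0.05 and 1 by DESeq2). Smad7 came nearest (-0.85, SE 0.25, adjusted p = 0.120), and it passed with the mouse as a block (-0.87, adjusted p = 0.0341) and in DESeq2 (-0.84, adjusted p = 0.0479). Folds within mice were read in CPM of library totals without TMM, whose factors were further apart between the sorts in the i.v. mice. On that scale Smad7 was 4.48- and 3.99-fold lower in MLCs of the i.v. mice and 1.75- and 2.25-fold lower in those of the i.c.v. mice. Eng was 5.96- and 9.21-fold lower in the i.v. and 3.90- and 5.03-fold lower in the i.c.v. mice, and Tgfbr1 2.21- and 2.52-fold against 1.27- and 1.503-fold, with an interaction of -0.56 (SE 0.24, adjusted p = 0.263). The interactions of the other 8 genes lay between -0.63 and 0.27 on the log2 scale.

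**Figure D4:**
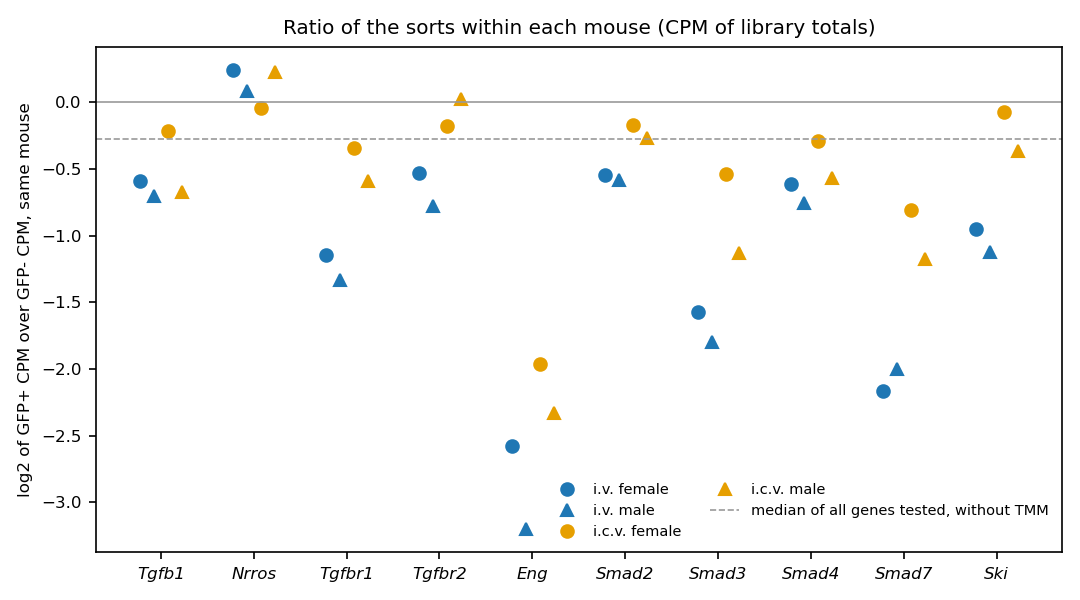
Log2 ratio of GFP+ to GFP- CPM within each of the 4 mice (y axis) for each gene, with i.v. mice in blue and i.c.v. mice in orange, females as circles and males as triangles, and the median of all genes tested without TMM as a dashed line at -0.27. The 2 i.v. mice lie below the 2 i.c.v. mice for Smad7, Smad3, Tgfbr1, Ski and Eng, among others. These ratios are without TMM, whose factors were further apart between the sorts in the i.v. mice. They were 0.878 and 0.859 in GFP+ and 1.13 and 1.16 in GFP- libraries of the i.v. mice. In the i.c.v. mice they were 0.967 and 0.924 against 1.04 and 1.09. The share of all genes with the same order of routes was not counted.

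Recipient sex was compared within each sort, with male donor cells in all GFP+ libraries. In MLCs 0 genes passed (0% of 12540, edgeR, with 455 at an unadjusted p under 0.05 and 3 by DESeq2), and the log2 fold changes of the 10 genes lay between -0.35 and 0.27 for female against male recipients. In GFP- cells 0.0319% of 12540 genes passed, none of the 10 among them, and their log2 fold changes lay between -0.46 and 0.12. Smad4 had the lowest unadjusted p there (0.0481), with means of 61.6 CPM in females and 76.9 CPM in males and a log2 fold change of -0.27 (SE 0.11, adjusted p = 0.9997).

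The remainder of the pathway was read from 6 lists and the microglial genes known to depend on TGF-beta from a seventh, counted against the background of 16.6% higher and 15.9% lower among all genes tested. Of 16 genes for latency and activation, 9 passed the filter on low counts, 2 were higher and 2 lower in MLCs. Mmp14, a membrane metalloprotease, was higher (55.7 ± 11.3 against 31.5 ± 6.97 CPM, log2 fold change 1.10). The integrin subunits Itgav (-0.66) and Itgb5 (-0.51), which form a receptor that can release the ligand, were lower, with Itgb5 at 488 ± 126 in MLCs against 838 ± 74.8 CPM. Itgb1 (0.15) and the proprotein convertase gene Furin (-0.42) did not pass.

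Receptors and their modulators were split with TMM, with 5 of 12 tested genes higher and 5 lower. Without TMM 4 were higher and 7 lower, where 6.55% of all genes passed as higher and 32.3% as lower. Higher in MLCs were the adaptor Dab2 (1.24), the receptor Acvrl1 (1.05), which binds ligands together with endoglin in endothelial cells, and Pmepa1 (0.91), an inhibitor that is also a Smad target, at 1431 ± 286 against 916 ± 191 CPM (SD, n = 4 each). Lower were the activin receptor gene Acvr2b (-1.04) and Ldlrad4 (-0.83), whose product keeps Smads from the receptor. Bmpr2 (-0.22) and Acvr2a (-0.40) did not pass. Of 8 other Smads and transducers tested, 4 were lower and 0 higher, namely Smad1 (-0.46) and Smad5 (-0.64), which serve the BMP branch, and Map3k7 (-0.30) and Tab2 (-0.36), which form the TAK1 kinase complex. Traf6 (-0.19) and Zfyve9 (0.00) did not pass. These log2 fold changes are with TMM, and without it 6 of the 8 were lower.

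Nuclear and ubiquitin regulators mostly did not pass, with 2 of 17 higher and 2 lower. The ubiquitin ligase genes Wwp1 (1.04) and Nedd4l (0.60) were higher, both with overlapping libraries in CPM, and Nedd4l did not pass without TMM (0.32, adjusted p = 0.124), while the ligase gene Smurf1 (-0.62) and the acetyltransferase gene Ep300 (-0.32) were lower, and without TMM 8 of the 17 were lower. Skil (0.04) and Ncor1 (-0.05) did not pass. Of 14 Smad target genes tested, which include Smad7 and Ski themselves, 3 were higher and 1 lower. Without TMM 3 of these target genes were higher and 3 lower, and the calls named next are with TMM. Tgfbi (198 ± 31.9 against 99.5 ± 26.5 CPM, 1.27), Bhlhe40 (1.98, with overlapping libraries) and Pmepa1 were higher and Smad7 was lower, and Junb (-0.09) and Skil did not pass. BMP and activin ligands and antagonists were scarce, since 3 of 12 passed the filter on low counts and none of them the test, with Gdf15 at -0.87 and Bmp2 at 1.20.

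Of 16 microglial genes known to depend on TGF-beta, 10 were lower in MLCs, 0 higher and 6 did not pass, with a median log2 fold change of -0.76 against 0.01 over all genes tested. Of these 16, 8 also stand in the list of microglia markers, and 4 of the other 8 were lower. The transcription factor gene Sall1 had the largest log2 fold change of the list, at 14.2 ± 7.91 CPM in MLCs and 232 ± 56.2 CPM in endogenous microglia (SD, n = 4 each), a log2 fold change of -3.76 (SE 0.38, adjusted p = 0.000405). Slc2a5, a fructose transporter gene, was at 14.4 ± 9.67 and 221 ± 60.9 CPM (-3.68), and Tmem119, a microglial surface marker, at 291 ± 74.4 and 911 ± 227 CPM (-1.37). P2ry12 and Sparc were lower also. C1qa (0.33) and Csf1r (-0.34) did not pass.

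**Figure D5:**
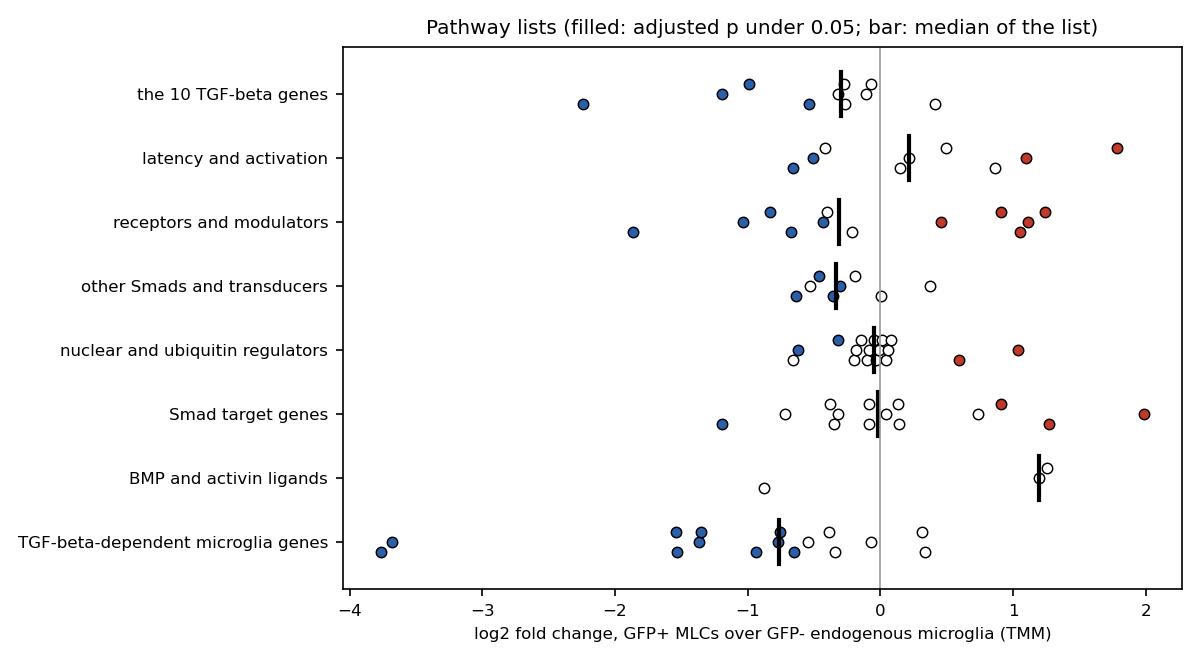
Log2 fold change of GFP+ MLCs over GFP- endogenous microglia with TMM (x axis) for each gene that passed the filter on low counts, by list, filled blue (lower) or red (higher) where the adjusted p was under 0.05, with the median of each list as a bar. The medians were -0.30 for the 10 genes, -0.02 for the Smad target genes and -0.76 for the microglial genes known to depend on TGF-beta.

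Genes with the most similar pattern were sought for each member over the 12 libraries, among 9669 genes with at least 20 CPM in at least 1 library, by Pearson's r of log2(CPM + 1). The libraries share mice and cell types, and the correlations are given as a description, with no test. Tgfbr1 was most like Abcc3, Nectin4 and Arhgap22 (r = 0.998, 0.997 and 0.997), Tgfbr2 most like Kctd12, Abca9 and Morc3 (0.997, 0.997 and 0.994), and Eng most like Il6st, Arhgef7 and Lrba (0.989, 0.983 and 0.976). Smad7 was most like Pla2g4a, Rasgrp3 and Atp6v1c1 (0.977, 0.975 and 0.973), and Ski like Cltc, Tal1 and Sipa1l2 (0.985, 0.984 and 0.983). For Tgfb1 they were Il6ra, Ppp1r18 and Lcp2 (0.997, 0.996 and 0.996), and for Nrros they were Rgs2, Ccnd1 and Ctsh (0.995, 0.995 and 0.991). Smad2 was most like Cd2ap, Trim56 and Madd (0.976, 0.976 and 0.974), Smad3 like Trip12, Rbm39 and Asap1 (0.982, 0.981 and 0.980), and Smad4 like Ppp1r12a, Msl1 and Wbp1l (0.939, 0.931 and 0.927), the lowest values of the 10. Between members, Tgfb1 and Nrros ran most closely together (r = 0.981), then Tgfbr2 and Nrros (0.970), while r was 0.0886 for Tgfbr1 and Smad4. Tgfb1 and Nrros were at 6.87 and 8.12 CPM in the astrocyte library and at 1.88 and 0.807 CPM in the neuron sort, far below the other libraries. Between GFP+ and GFP- cells their log2 fold changes were -0.27 and 0.41, so their r does not describe a likeness between these sorts. Tgfbr1 and Smad4 were both lower in the GFP+ library in 4 of 4 mice.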

How the data were processed

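Single-cell libraries of sorted cells (10x Genomics 3′ chemistry) were made from 4 treated mice, with 1 GFP+ and 1 GFP- library each, and from 1 untreated mouse, with 1 library for each of 4 cell types. The authors deposited raw UMI counts per gene and cell barcode, made per the file headers with Cell Ranger 3.1.0 on mm10. No normalization had been applied, and each untreated table held exactly 2500 barcodes. A barcode was kept if it had 200 genes or more and no more than 10% of its UMIs from mitochondrial genes. This kept 27439 of 31104 treated and 3336 of 10000 untreated barcodes, and counts were summed per library. Doublets were not called. The 3′ UMIs were not compared between genes.

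The library was the replicate, and each treated library came from a different sort of 1 mouse. In the reported fits the GFP+ and GFP- libraries of a mouse entered as independent. The p-values of these fits thus measure a spread between libraries of 4 mice, pooled over both sorts, and not a spread between independent mice. The sums of the 8 treated libraries were tested with edgeR 4.0.16 (R 4.3.3, TMM, filterByExpr, quasi-likelihood F test, Benjamini-Hochberg over all genes tested), for sort in a fit on sort and for route, recipient sex and the interaction in fits on sort by route or by sex. DESeq2 1.42.0, other cell filters, thinning to 500 UMIs and the mouse as a block were alternatives, and library totals without TMM were added after the data had been seen. In simulated data with 200 genes changed 4-fold, 97.5% of them were recovered for the sort, 93.5% and 93% for route in GFP+ and GFP- cells, 96% and 94% for sex and 76% for the interaction, and 3.47% to 8.57% of the calls were false. The changed genes had at least 20 CPM, and the simulated libraries were independent of each other. These rates thus do not cover pairing by mouse, differences under 4-fold or a shift of most genes between the sorts. Shares were compared with exact permutation tests (scipy 1.17.1, Python 3.11.15). Intervals and limits (95%, exact binomial or Poisson, and 3 counts for a count of 0) cover counting error only.

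The pairing by mouse comes from the labels, which give the same animal for both sorts. Deviations from the group means correlated at 0.205, -0.275, -0.331 and 0.013 within the 4 mice. All 10 genes are named. From each of 7 pathway lists (98 genes) the text names called genes by absolute log2 fold change and genes that did not pass by level, among those with at least 20 CPM, together with the 3 genes most like each of the 10. The genes, lists and tests were chosen with earlier results of these data known. Gene positions come from GENCODE mouse release M21 on GRCm38, and promoters from RefSeq.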

Additional observations from a re-analysis of the deposited data

Results flagged for a closer look

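In 46 sets of 4 libraries tested for a library that stands apart from the other 3 (Dixon's test at 95%), 2 did, and chance gives about 1 in 20. The share of cells with a Tgfbr2 UMI at 500 UMIs per cell was 18.2% in the i.v. male's GFP- library, above the other 3 GFP- libraries. The share with a Smad3 UMI was 1.02% in the i.v. female's GFP+ library, below the other 3 GFP+ libraries, and this is the library with the highest median depth (3499 UMIs per cell).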

How the results depend on the processing

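Between the sorts, 3820 genes passed in the reported fit, 1316 in cells thinned to 500 UMIs, 1704 without cells carrying 3 CAM, monocyte or dendritic markers, 1031 in the i.c.v. mice alone, and 2177 to 3791 with 1 library left out. Of the 10 TGF-beta genes, 4 passed, against 2, 8 (32.3% of all genes passed as lower there) and 2 without those cells, without TMM and in the i.c.v. mice alone. Tgfbr2 changed sign in the i.c.v. mice alone (0.10), uncalled in both. For route in MLCs, 348 genes passed, against 81 with thinning, 228 without the deepest 5% of cells, 526 by DESeq2, 679 without a filter on low counts and 42 to 293 with 1 library left out, and of the 10 genes 1 passed, against 0 with all barcodes, stricter barcode filters, thinning, the deepest cells left out or that sort fitted alone, and 0 to 1 with 1 library left out. For route in GFP- cells the counts were 0, against 4 with thinning, 68 by DESeq2, 83 without the filter, 4 with that sort alone and 0 to 23 with 1 library left out. For the interaction they were 240, against 142 with stricter filters, 75 with thinning, 598 by DESeq2, 698 without the filter and 41 to 239 with 1 library left out. For sex they were 0 in MLCs, against 1 with stricter filters, 3 by DESeq2 and 6 without the filter, and 4 in GFP- cells, against 7 and 10 by the last of these. The cause of these changes was not tested. Of 792 values of the 10 genes in these 5 comparisons that are not given singly, 58 changed sign, 0 of them called, with an absolute log2 value of at most 0.29 after the change.

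With the mouse as a replicate block, 678 genes passed for the interaction and 1 of the 10 genes did (Smad7), as 1 did by DESeq2, and Smad4 passed between the sorts (-0.27). The block changed no other call among the 10 genes.

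Shares of cells at their own depth reversed the difference between sorts for Tgfb1 (7.71 points), Tgfbr2 (10.1), Smad2 (4.21), Smad4 (4.45) and Ski (6.64), where GFP+ cells were deeper. Limits are the 4 mice, with 2 per route and per sex and hence 1 per cell of the design, the untreated libraries without replicates, and the low counts of Eng, Smad2 and Smad3.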
